A study of Mus musculus with 18 samples.

Results

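The 6 T-box genes Tbx1, Tbx2, Tbx3, Tbx5, Tbx18 and Tbx20 were followed in mouse heart ventricles at E14.5 (embryonic stage). They were chosen by name, as T-box factors known from the heart chambers, with earlier results of these data known. They are 6 of the 28563 genes to which the deposited transcripts could be tied. Polyadenylated RNA was sequenced in 18 libraries. Of these, 6 were labelled knockout for both Irx3 and Irx4 (DKO), 3 Irx3KO, 3 Irx4KO, 3 heterozygous for both genes (dHet, Irx3+/-;Irx4+/-) and 3 wild type (WT). Irx3 and Irx4 encode Iroquois homeodomain factors of the ventricle. The sources used here do not give the strain, the design of the mutant alleles, or whether the replicates of a group are separate embryos. The p-values below therefore speak only to variation among the sequenced libraries, part of which may be technical. The libraries form sets that differ technically. Set 1 holds the 3 WT libraries and DKO 5, 7 and 10, and set 2 holds DKO 2, 3 and 4 and all Irx3KO, Irx4KO and dHet libraries. Genotypes were therefore compared within a set, and the few values that cross the sets are named as such.

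Library totals ran from 26721576 to 45946741 estimated counts. Of 16607 genes tested, 18.8% differed between the DKO libraries of set 1 and those of set 2 at an adjusted p under 0.05 (9.04% higher and 9.74% lower in set 1), although both carry the same label. Irx3 averaged 3.77 CPM (counts scaled to library size) in DKO libraries and 24.9 CPM in WT libraries of set 1, and 3.66 CPM in DKO, 2.83 CPM in Irx3KO, 24.9 CPM in Irx4KO and 13.1 CPM in dHet libraries of set 2. Irx4 averaged 253 CPM in DKO libraries and 95.6 CPM in WT libraries of set 1, and 229 CPM in DKO, 145 CPM in Irx3KO, 225 CPM in Irx4KO and 185 CPM in dHet libraries of set 2. The mean Irx4 count was thus higher, not lower, in libraries labelled as lacking Irx4 than in the others of their set. In edgeR's quasi-likelihood test this passed for DKO against WT (adjusted p = 0.000104) and against Irx3KO (0.0452). It did not pass for DKO against dHet (0.464), Irx4KO against dHet (0.905) or Irx4KO against Irx3KO (0.0625). Which part of Irx4 was removed is not given in the sources used here, so the count does not check that label, and DKO and Irx4KO below mean the libraries so labelled. All 6 ventricular muscle markers (Myl2, Myl3, Myh7, Tnnt2, Actn2 and Hey2) were detected in every group, with summed levels between 18700 and 22800 CPM.

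T-box proteins bind DNA through a shared domain, and several members can compete for related sites near the same heart genes. In the mouse heart Tbx5 and Tbx20 act with Nkx2-5 and Gata factors to promote the chamber muscle programme, whereas Tbx2 and Tbx3 repress chamber genes in the atrioventricular canal and, for Tbx3, in the conduction system. Bmp2 signalling turns on Tbx2 in the canal, and Tbx20 restrains Tbx2 in the chambers. Tbx18 marks the epicardium, the sinus horns and part of the ventricular septum and left ventricular wall, and Tbx1 acts in the pharyngeal mesoderm that builds the outflow tract.

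To show the kind of sequence through which these proteins are known to act, the promoter windows of a classical target, Nppa (atrial natriuretic peptide), and of the chamber gene on which the results below turn, Gja1 (connexin 43, a gap junction protein), were read from RefSeq (GRCm38.p6). Each window runs from 250 bases before to 50 bases after the start. The T-box half-site AGGTGTGA was searched on both strands, and capitals mark a match, which reads TCACACCT on the printed strand.
Nppa, chr4:148000472-148000771, plus strand: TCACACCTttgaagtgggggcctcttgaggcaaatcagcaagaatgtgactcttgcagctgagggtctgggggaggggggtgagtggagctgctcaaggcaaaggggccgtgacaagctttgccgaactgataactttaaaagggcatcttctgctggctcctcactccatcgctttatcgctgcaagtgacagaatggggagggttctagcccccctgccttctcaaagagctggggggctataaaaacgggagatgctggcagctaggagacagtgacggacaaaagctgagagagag
Gja1, chr10:56377050-56377349, plus strand: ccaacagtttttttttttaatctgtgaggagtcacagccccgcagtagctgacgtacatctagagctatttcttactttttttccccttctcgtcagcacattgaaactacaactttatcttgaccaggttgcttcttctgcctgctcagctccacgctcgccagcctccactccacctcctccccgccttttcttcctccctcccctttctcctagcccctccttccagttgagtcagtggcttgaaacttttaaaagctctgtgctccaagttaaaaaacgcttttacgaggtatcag
The Nppa window held 1 match, whose first base lay at -250 relative to the start, and the Gja1 window held none. The same letters occurred in 419 of 32851 promoter windows, or 1.28%. RefSeq windows were matched for 3 of the 6 members (Tbx1 with its 2 windows, Tbx18 and Tbx20). None held this half-site or the Iroquois motif ACANNTGT, which occurred in 7.38% of all windows. Tbx2, Tbx3 and Tbx5 had no matched window.

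Per transcript length, the members covered a wide range in WT ventricles. Tbx20 was the most abundant at 97.4 ± 9.13 TPM (a level scaled for transcript length and library size), where the error here and below is the SD over the 3 libraries of a group. Tbx18 at 18.8 ± 1.06 TPM and Tbx5 at 18.5 ± 1.08 TPM did not differ beyond their spread. Tbx2 followed at 8.97 ± 1.32 TPM, then Tbx3 at 5.75 ± 0.331 TPM. Tbx1 stood at 0.164 ± 0.149 TPM. In DKO libraries of set 1, Tbx2 reached 16.5 ± 1.95 TPM, which brought it near Tbx18 (20.4 ± 1.94 TPM) and Tbx5 (23.7 ± 3.53 TPM) in the same libraries. The levels below are in CPM and compare libraries for 1 gene at a time. In bulk ventricles, fewer cells of a type and less RNA per cell cannot be told apart.

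**Figure D1:**
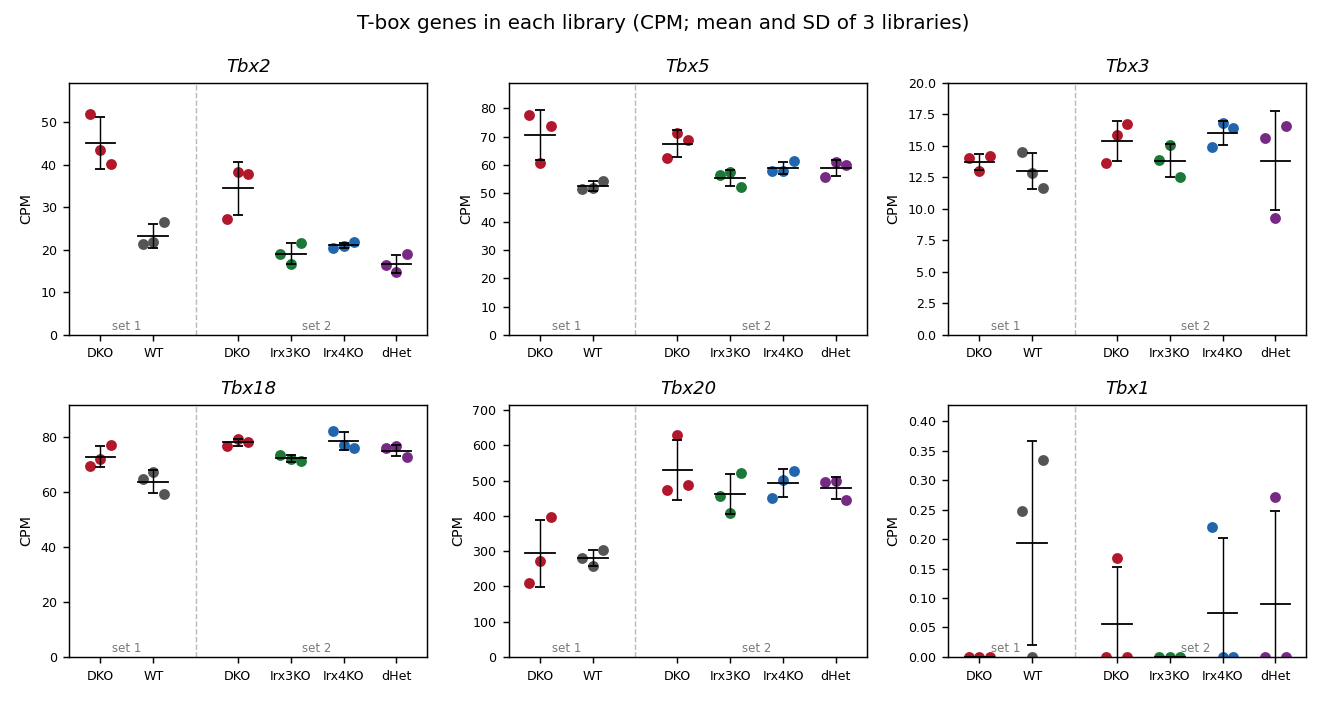
CPM of the 6 T-box genes (one panel each, axis from 0) in each of 18 libraries, grouped by label and by library set on either side of the dashed line. Points are libraries, and bars are the mean and SD of 3 libraries. Tbx2 was higher in every DKO library than in any other library of its set, and Tbx1 stayed between 0 and 0.334 CPM.

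Of the 6 members, 5 passed the filter on low counts, and Tbx1 did not. Between DKO and WT libraries, 2 of the 5, Tbx2 and Tbx5, were higher in DKO libraries at an adjusted p under 0.05, and none was lower. Over all genes tested, 1.44% were called in that comparison, 0.644% higher and 0.795% lower. The median log2 fold change of the 5 was 0.19, against 0.01 over all genes tested. Because the members were chosen with earlier results of these data known, these shares were not tested against each other. The p-values of single members below carry the same limit.

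Tbx2, the repressor of the atrioventricular canal, rose about 2-fold when both Irx genes were labelled as lost. In set 1 it had 52.1, 43.5 and 40.2 CPM in DKO 5, 7 and 10, against 21.4, 21.8 and 26.5 CPM in WT 1, 2 and 3. The lowest DKO library lay well above the highest WT library. The difference was 0.96 ± 0.14 on the log2 scale (SE), 1.95-fold, with an adjusted p of 0.00231 in edgeR's quasi-likelihood test. Tbx2 was 19th by p among 16607 genes. It stayed past the threshold when each of the 18 libraries was left out in turn, with adjusted p from 0.00121 to 0.0251. With the spread taken from the 6 libraries of set 1 alone, the adjusted p was 0.0511.

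The same gene was also high in the DKO libraries of set 2, which are other libraries set against other genotypes. Tbx2 had 27.2, 38.3 and 37.8 CPM in DKO 2, 3 and 4. It had 19.1, 16.6 and 21.7 CPM in Irx3KO 1, 2 and 4, then 20.5, 20.9 and 21.8 CPM in Irx4KO 2, 3 and 4, and 16.4, 14.7 and 18.9 CPM in dHet 2, 3 and 4. Each DKO library exceeded all 9 libraries of the other genotypes, and DKO 2 stood nearest to them. These 3 DKO libraries serve in each of the following comparisons, which are therefore not independent of each other.

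Against dHet, 1 of the 5 tested members, Tbx2, was called, where 0.0903% of all genes were, 0.0361% higher and 0.0542% lower. It was higher by 1.05 ± 0.14 (log2, SE), 2.07-fold, with an edgeR adjusted p of 0.00596, and was 3rd by p. The call was lost only without dHet 3, at an adjusted p of 0.0608. Against Irx3KO, again only Tbx2 of the 5 was called, where 0.379% of all genes were (0.163% higher, 0.217% lower), at 0.85 ± 0.14 and an edgeR adjusted p of 0.0111. That call was lost without DKO 3 (0.0517), DKO 4 (0.0738), Irx3KO 1 (0.0736) or Irx3KO 2 (0.0753). Against Irx4KO, Tbx2 was higher by 0.71 ± 0.14 but did not pass edgeR's test (adjusted p = 0.176), although it was 9th by p, since only 4 genes, 0.0241%, were called. DESeq2 called it there at an adjusted p of 0.00166.

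Against the mean of Irx3KO, Irx4KO and dHet, Tbx2 in DKO libraries was higher by 0.87 ± 0.11 (log2, SE), 1.83-fold, with an edgeR adjusted p of 0.00223. The call was lost without DKO 4 (adjusted p = 0.0587) and held in the other 17 fits with a library left out. In that comparison 12 genes, 0.0723% of those tested, were called, 0.0361% higher and 0.0361% lower, and Tbx2 was 1 of the 6 called higher. An exact two-sided permutation test of 3 against 9 libraries gave p = 0.00455, the smallest that 220 arrangements allow, for a mean difference of 0.84 on the log2(CPM + 0.5) scale. The same test of 3 against 3 libraries in set 1 cannot go below 0.1. The permutation p largely restates that the groups did not overlap. The share of all genes tested whose groups did not overlap was not counted, so a lack of overlap is given here and below as a description only.

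In the single mutants no difference in Tbx2 passed the test. Irx4KO libraries exceeded dHet libraries by 0.34 ± 0.14 (log2, SE; edgeR adjusted p = 0.829), and the groups did not overlap. Irx3KO libraries exceeded dHet libraries by 0.20 ± 0.14 (adjusted p = 1), and those groups overlapped. No member passed either test. Of all genes, 0.012% were called between Irx4KO and dHet libraries and 0.00602% between Irx3KO and dHet libraries. Irx3KO and Irx4KO libraries differed in Tbx2 by -0.14 ± 0.14 (adjusted p = 0.912), and 0.289% of all genes were called there. Whether the change with one mutation depended on the other was tested with WT tied to set 2 through the DKO libraries present in both sets. That interaction was 0.60 ± 0.28 for Tbx2 (edgeR adjusted p = 1), and no gene was called (0%). Without a term for the sets it was 1.20 with an adjusted p of 0.0106, a value that also holds the difference between the sets.

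**Figure D2:**
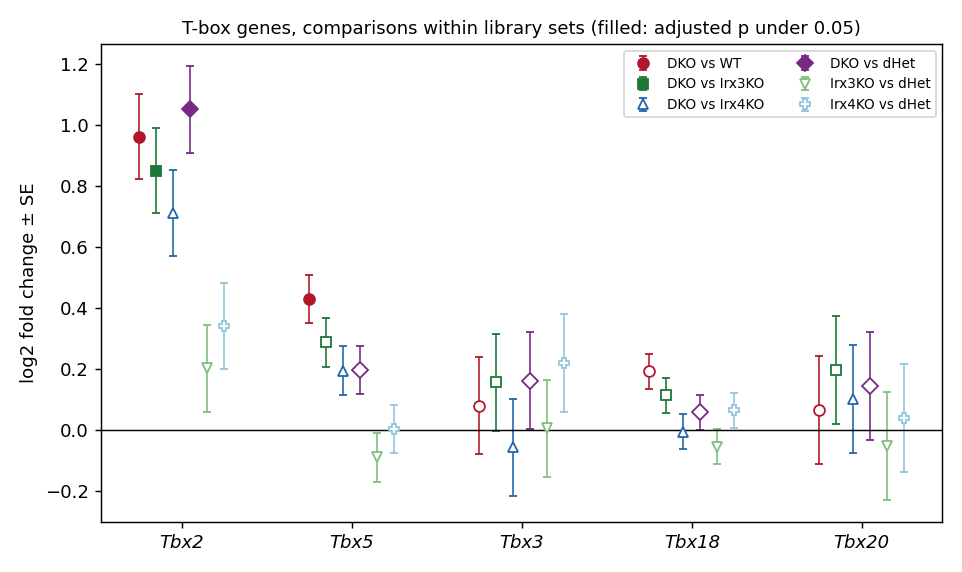
Log2 fold change with its SE (vertical axis) of the 5 tested T-box genes in 6 comparisons within library sets, the first-named genotype over the second. Filled symbols passed an adjusted p of 0.05 in edgeR's quasi-likelihood test: Tbx2 in DKO against WT, Irx3KO and dHet, and Tbx5 in DKO against WT.

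Tbx5, the activator of chamber and conduction genes, was also higher in DKO libraries of set 1. It had 77.6, 60.8 and 73.7 CPM in DKO 5, 7 and 10, against 51.4, 51.8 and 54.5 CPM in WT 1, 2 and 3. The groups did not overlap, and the difference was 0.43 ± 0.08 (log2, SE), 1.35-fold, with an edgeR adjusted p of 0.0118. Without WT 1 the adjusted p was 0.0629, and with the spread of set 1 alone it was 0.242.

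In set 2 the Tbx5 difference did not pass in any comparison. Whether it differed from that in set 1 was not tested. The DKO libraries had 62.3, 71.4 and 68.8 CPM, and the other 9 libraries lay between 52.2 CPM (Irx3KO 4) and 61.4 CPM (Irx4KO 4). The DKO values again lay above all others, by a narrow margin for DKO 2. DKO libraries were higher by 0.29 ± 0.08 than Irx3KO (edgeR adjusted p = 0.185), by 0.19 ± 0.08 than Irx4KO (0.85) and by 0.20 ± 0.08 than dHet (0.419). Against the mean of these genotypes the difference was 0.23 ± 0.06 with an adjusted p of 0.216. For this single gene an exact two-sided permutation test of 3 against 9 libraries gave p = 0.00455, unadjusted and the smallest possible. Irx4KO and dHet libraries had almost the same Tbx5 level, 59.0 ± 2.1 and 59.0 ± 2.7 CPM.

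Tbx18, the epicardial and septal factor, passed the main test in no comparison of genotypes. It had 69.6, 71.9 and 77.2 CPM in DKO 5, 7 and 10, against 64.6, 67.5 and 59.5 CPM in WT 1, 2 and 3. The ranges did not overlap, as was also so for listed genes that were not called, such as Myl2 and Actn2. The difference of 0.19 ± 0.06 (log2, SE) did not pass edgeR's test (adjusted p = 0.116). It passed in 1 of 18 fits with a library left out, without DKO 5 (0.038), and in 1 of 8 other alternatives, DESeq2 (0.029). The adjusted p reached 0.427 without WT 3 and 0.615 with set 1 alone. In set 2 it averaged 78.2 ± 1.26 CPM in DKO, 72.3 ± 1.17 CPM in Irx3KO, 78.5 ± 3.33 CPM in Irx4KO and 75.2 ± 2.17 CPM in dHet libraries. The 9 epicardial markers summed to 246 to 274 CPM in DKO and 222 to 250 CPM in WT libraries, and none of them was called between these groups. Their part in the Tbx18 level was not tested.

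Tbx20, the most abundant member, differed between the sets and passed no test between genotypes. It averaged 294 ± 96 CPM in DKO and 281 ± 22.2 CPM in WT libraries of set 1, a difference of 0.06 ± 0.18 (log2, SE; edgeR adjusted p = 0.925). The DKO libraries of set 1 were far apart, at 210, 273 and 398 CPM, and enclosed the WT values of 282, 259 and 303 CPM. Leaving out 1 library at a time moved the difference between -0.22 and 0.26. In set 2 it averaged 530 ± 85.7 CPM in DKO, 463 ± 57.3 CPM in Irx3KO, 494 ± 39.2 CPM in Irx4KO and 480 ± 31.4 CPM in dHet libraries, with overlapping groups. Between the DKO libraries of set 1 and those of set 2, the difference was -0.85 ± 0.18 (edgeR adjusted p = 0.00464), so Tbx20 was lower in set 1. Almost all of its counts lay on the longer transcript, Tbx20-201, with a mean of 98.6% to 99.3% per group.

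Tbx3, the close relative of Tbx2 and a repressor in the conduction system, passed no test. It had 14.0, 13.0 and 14.2 CPM in DKO 5, 7 and 10, against 14.53, 12.9 and 11.7 CPM in WT 1, 2 and 3. The groups overlapped, and the difference was 0.08 ± 0.16 (log2, SE; edgeR adjusted p = 0.884). In set 2 it averaged 15.4 ± 1.59 CPM in DKO, 13.8 ± 1.3 CPM in Irx3KO, 16.0 ± 0.967 CPM in Irx4KO and 13.8 ± 3.94 CPM in dHet libraries. The wide spread of the dHet group came from dHet 3 at 9.3 CPM. With 342.4 to 616.0 estimated counts per library, this was the shallowest tested member. Its counts were split over 5 transcripts, of which Tbx3-203 held a mean of 46.5% to 59.0% per group and Tbx3-201 24.8% to 41.1%. These shares varied widely between libraries of a group, with an SD of up to 14.3 percentage points for Tbx3-201, and the split of reads between overlapping transcripts is an estimate.

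Tbx1, the pharyngeal and outflow tract factor, was listed at 0 in 13 of 18 libraries. It had 6.2 estimated counts in DKO 3, 8.8 in Irx4KO 2, 10 in dHet 3, 10 in WT 1 and 14 in WT 3. The 3 counts that a 0 allows correspond to 0.0703 to 0.12 CPM per library, and no fold was computed. Among the pharyngeal and outflow tract markers, Fgf8 averaged under 1 CPM in every group.

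Chamber genes known to be repressed by Tbx2 or Tbx3 were examined next. All 8 on the list were tested, and in DKO against WT libraries none was called higher and 2 were called lower. Over all genes tested, 0.644% were called higher and 0.795% lower. The median log2 fold change of the 8 was -0.22, against 0.01 over all genes. The list was chosen with earlier results of these data known, so these shares were not tested against each other. Gja1 had 361, 340 and 407 CPM in DKO 5, 7 and 10, against 593, 580 and 475 CPM in WT 1, 2 and 3. It was lower by -0.57 ± 0.09 (log2, SE; edgeR adjusted p = 0.00285), and without set 2 the adjusted p was 0.138. Mycn, which drives muscle cell proliferation, averaged 34.5 ± 0.785 CPM in DKO and 49.9 ± 5.95 CPM in WT libraries (-0.53 ± 0.11, adjusted p = 0.0186). Its call was lost without DKO 7 (0.0584), WT 1 (0.0629) or WT 2 (0.0748), and with set 1 alone (0.138). The other 6 were not called, and Nppa pointed the other way, with 1430 ± 287 CPM in DKO and 1090 ± 163 CPM in WT libraries (0.39 ± 0.19, adjusted p = 0.37).

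In set 2, Gja1 and Tbx2 ordered the genotypes differently. It had 304, 343 and 327 CPM in DKO libraries, 505, 520 and 583 CPM in Irx3KO, 312, 329 and 326 CPM in Irx4KO and 511, 499 and 477 CPM in dHet libraries. The low level was thus shared by DKO and Irx4KO libraries, whereas Tbx2 was high in DKO libraries. DKO libraries were lower than dHet by -0.61 ± 0.09 (edgeR adjusted p = 0.00675) and lower than Irx3KO by -0.72 ± 0.09 (0.00152). Irx4KO libraries were lower than dHet by -0.62 ± 0.09 (0.0115), a call lost without dHet 3 (0.0536) or without Irx4KO 2 (0.133), 3 (0.0522) or 4 (0.1). Tbx2 in the same comparison was higher in Irx4KO libraries by 0.34 ± 0.14 (edgeR adjusted p = 0.829), and the groups did not overlap. Whether the Gja1 level depended on Tbx2 was not tested. In set 2 Gja1 was the one gene called of these 8, in every comparison where any was. The shares of all genes called in those comparisons are given above.

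**Figure D3:**
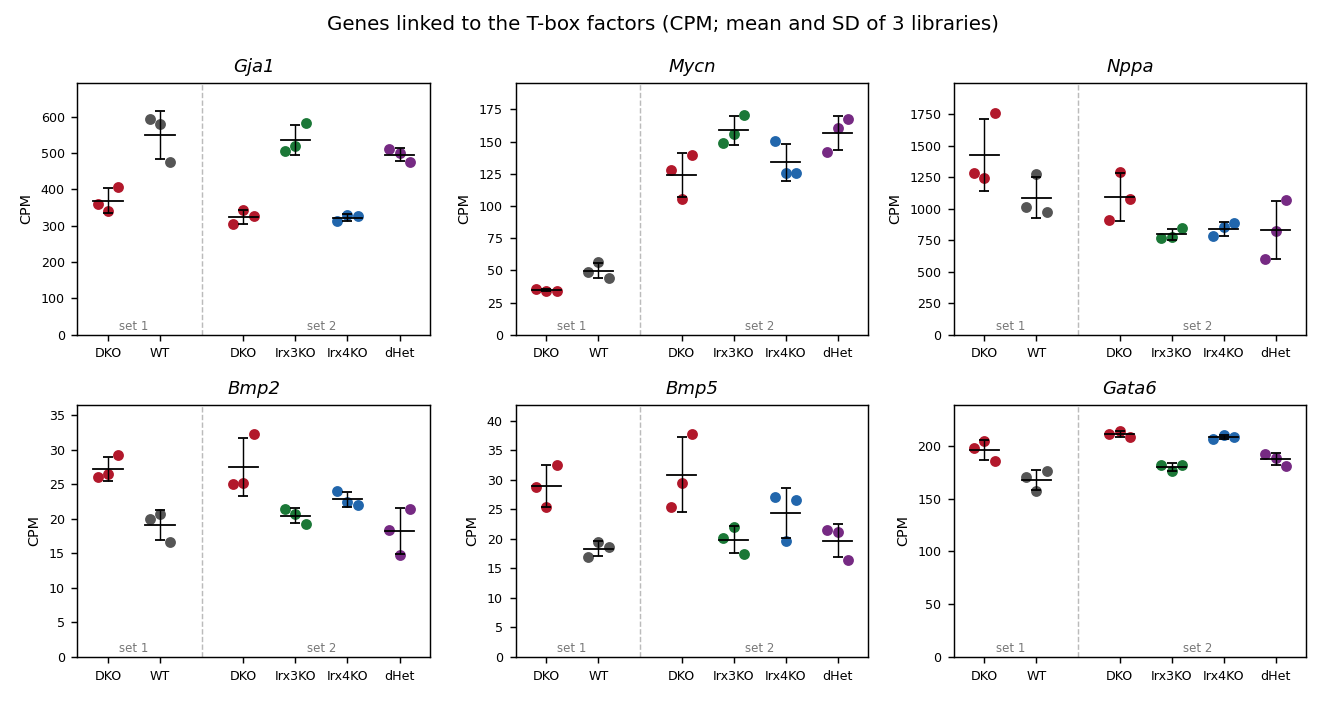
CPM per library (points; bars are the mean and SD of 3 libraries, axis from 0) of 6 genes tied by background knowledge to the T-box factors, grouped by label and library set. Gja1 lay at 304 to 343 CPM in DKO libraries of set 2 and at 312 to 329 CPM in Irx4KO libraries, against 477 to 583 CPM in Irx3KO and dHet libraries, and Mycn was lower in all of set 1 than in set 2.

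No gene listed as activated by Tbx5 was called. Of 9 tested, among them Nppa, Gja5, Ryr2 and Atp2a2, none was called in DKO against WT, with a median of 0.14, and none against the mean of the other set 2 genotypes, with a median of -0.06. Of 11 genes of the atrioventricular canal programme, none was called, with medians of 0.20 and 0.23. The nearest was Bmp2, the ligand known to induce Tbx2 there, which averaged 27.3 ± 1.75 CPM in DKO and 19.1 ± 2.22 CPM in WT libraries (0.51 ± 0.13, edgeR adjusted p = 0.0519). In set 2 Bmp2 averaged 27.5 ± 4.16 CPM in DKO, 20.5 ± 1.11 CPM in Irx3KO, 22.8 ± 1.05 CPM in Irx4KO and 18.2 ± 3.38 CPM in dHet libraries (0.43 ± 0.10 against the mean of the others, adjusted p = 0.108). Bmp2 here, Nppa above and Nkx2-5 and Mga below were chosen for naming after their values were seen.

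Of 20 genes of the Bmp pathway, 1 was called between DKO and WT libraries, where 1.44% of all genes tested were. Bmp5, a ligand of the pathway, averaged 29.0 ± 3.61 CPM in DKO and 18.4 ± 1.24 CPM in WT libraries (0.66 ± 0.16, edgeR adjusted p = 0.0446). The call held in 6 of 18 fits with a library left out, with adjusted p up to 0.19 without WT 1, and was lost with set 1 alone (0.138). Of 15 cardiac partner factors, Gata6 alone was called, at 196 ± 9.61 CPM in DKO and 168 ± 9.83 CPM in WT libraries (0.23 ± 0.05, adjusted p = 0.0439). That call held in 3 of 18 such fits, with adjusted p up to 0.154 without WT 2, and was lost with set 1 alone (0.54). Nkx2-5, the partner of Tbx5 and Tbx20, averaged 112 ± 22.2 CPM in DKO and 83.9 ± 2.45 CPM in WT libraries and did not pass (0.42 ± 0.10, adjusted p = 0.0506). Against Irx3KO, where 0.379% of all genes were called, DKO libraries had 1 called partner of the 15, Mef2c. It stood at -0.46 ± 0.10 (edgeR adjusted p = 0.0469), a call that held in 3 of 18 such fits. Of the 12 other T-box names listed, 7 were tested and none was called in DKO against WT. Mga, a large T-box repressor, was the one above 1 CPM, at 85.8 ± 16.0 CPM in DKO and 88.0 ± 8.6 CPM in WT libraries.

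Some markers of atrial muscle were also higher in DKO than in WT libraries. Of 10 atrial markers, 4 were called higher in DKO than in WT libraries and none lower, with a median of 0.40. Over all genes tested, 0.644% were called higher and 0.795% lower. Myl7, the atrial light chain, averaged 662 ± 42.8 CPM in DKO and 345 ± 114 CPM in WT libraries (0.94 ± 0.16, edgeR adjusted p = 0.00913; 0.0508 without WT 1). Stard10, Myh6 and Myl4 were the other 3. The markers not called were Sln (0.89), Kcnj3 (0.38), Nr2f1 (0.21), Dkk3 (0.12), Nr2f2 (0.10) and Kcnj5 (-0.13). Against the mean of the other set 2 genotypes, Nr2f1 (-0.21), Sln (-0.13) and Nr2f2 (-0.04) were lower in DKO libraries. The rest of the 10 were higher there. With the spread of set 1 alone none of the 4 passed, with adjusted p of 0.209 for Myl7, 0.177 for Stard10, 0.228 for Myh6 and 0.239 for Myl4. Myh6 was also lost without WT 1 (0.0517) or WT 3 (0.0587), and Myl4 without WT 1 (0.0536) or WT 3 (0.0727). The 10 markers summed to 5010 to 5860 CPM in DKO and 3290 to 4070 CPM in WT libraries. In set 2 none of the 10 was called against Irx3KO, Irx4KO, dHet or their mean, with a median of 0.28 against the mean, and the sums were 4520 to 4840 CPM in DKO, 3930 to 4020 CPM in Irx3KO, 3760 to 4280 CPM in Irx4KO and 3470 to 3910 CPM in dHet libraries. The DKO sums thus lay above all others in both sets. They were made up largely of Myh6 and Myl4, at 2917 and 1780 CPM in DKO 5 and 1729 and 1422 CPM in WT 1. Tbx5 is itself known to be strong in atrial muscle. The part of these markers in the Tbx2 and Tbx5 results was not tested.

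**Figure D4:**
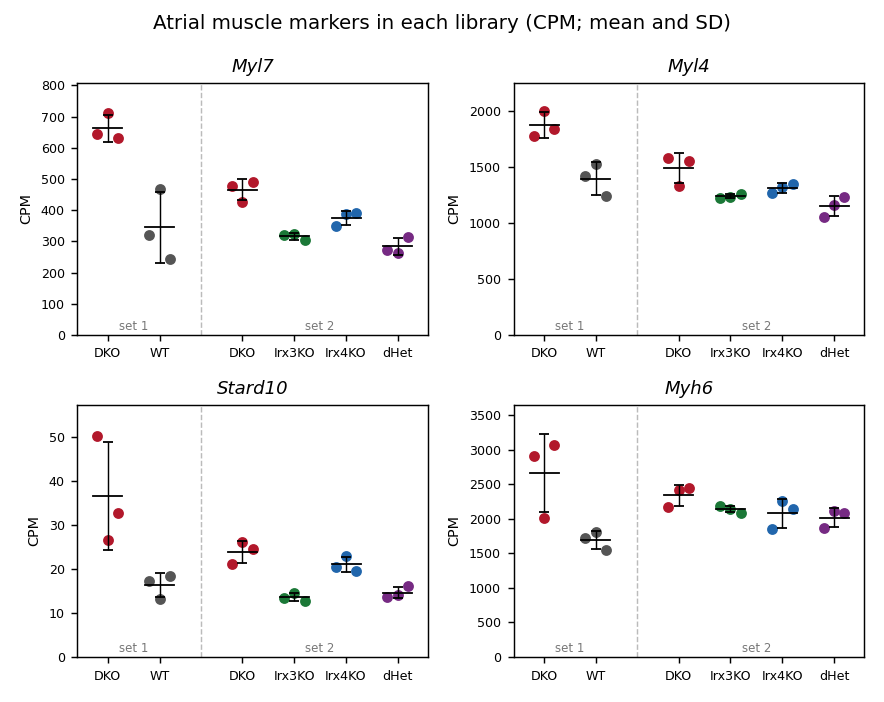
CPM per library (points; bars are the mean and SD of 3 libraries, axis from 0) of the 4 atrial muscle markers called between DKO and WT libraries, grouped by label and library set. Myl7 averaged 662 CPM in DKO and 345 CPM in WT libraries of set 1, and in set 2 the DKO libraries averaged 465 CPM.

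Sums of cushion and valve markers, a list that includes Tbx20, ran from 1130 to 1520 CPM in DKO and from 1110 to 1280 CPM in WT libraries, and in set 2 from 1480 to 1750 CPM in DKO, 1350 to 1410 CPM in Irx3KO, 1530 to 1630 CPM in Irx4KO and 1280 to 1410 CPM in dHet libraries. None of these markers was called between DKO and WT libraries. The 5 pacemaker and sinus markers summed to 123 to 157 CPM in DKO and 102 to 116 CPM in WT libraries, with none called. In set 2 they overlapped, at 100 to 154 CPM in DKO, 110 to 131 CPM in Irx3KO, 103 to 110 CPM in Irx4KO and 83.4 to 124 CPM in dHet libraries. The part of both lists in the Tbx2 and Tbx3 levels was not tested.

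Of 5 leukocyte markers, Lyz2, the lysozyme of macrophages, was called lower in DKO than in WT libraries. Of all genes tested, 0.795% were called lower there, and 0.217% were in DKO against Irx3KO libraries. Lyz2 was the one leukocyte marker called in either comparison. It averaged 14.1 ± 4.93 CPM in DKO and 39.6 ± 19.6 CPM in WT libraries (-1.49 ± 0.30, edgeR adjusted p = 0.0225), and the call was lost without DKO 7 (0.0942) or WT 1 (0.0505) and with set 1 alone (0.374). In set 2 Lyz2 averaged 8.57 ± 1.38 CPM in DKO, 25.0 ± 2.06 CPM in Irx3KO, 10.4 ± 1.46 CPM in Irx4KO and 15.5 ± 2.56 CPM in dHet libraries, and it was called against Irx3KO (-1.54 ± 0.30, adjusted p = 0.0452), a call that held in 3 of 18 fits with a library left out. The 5 leukocyte markers summed to 78.7 to 103 CPM in DKO and 96.8 to 165 CPM in WT libraries. Of 6 erythroid markers none was called between DKO and WT libraries, with a median of -0.66 and sums of 2610 to 4480 CPM in DKO and 3430 to 6970 CPM in WT libraries. In set 2 the erythroid sums were 3120 to 5570 CPM in DKO, 4720 to 7150 CPM in Irx3KO, 3820 to 8270 CPM in Irx4KO and 4070 to 4870 CPM in dHet libraries. The part of these markers in the results on the T-box genes was not tested.

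Genes whose pattern was most like each member were ranked by Pearson's r over 18 libraries, on log2(CPM + 0.5) centred within each set, among 10898 genes. The libraries share genotype, RNA quality and depth, so r is a description. Nearest to Tbx2 were Mycbpap (0.89), Krt8 (0.89) and Sfrp1 (0.88), and nearest to Tbx5 were Ppp1r13l (0.91), Ptk2b (0.89) and Stard10 (0.89), the last an atrial marker. Sox5, Apcdd1 and Dkk3 (0.81 to 0.80) stood nearest to Tbx3. Fstl4, Peg3 and Afdn (0.91 to 0.86) stood nearest to Tbx18, and Msh3, Elf2 and Syde2 (0.85 to 0.83) nearest to Tbx20. Among the members, Tbx2 and Tbx5 ran most closely together (r = 0.81), followed by Tbx5 and Tbx18 (0.63). Tbx3 with Tbx20 gave -0.002, and Tbx2 with Gja1 gave -0.74.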

How the data were processed

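PolyA RNA of E14.5 ventricles was sequenced with a directional library kit, per the labels' protocols. The authors deposited, for each of 18 libraries, estimated counts and TPM values per transcript, and per the submitters' processing notes kallisto 0.42.2 and the build mm9 were named. The deposited estimated counts were summed per gene over 78030 of 88943 transcripts that GENCODE M21 ties to a gene, and rounded. The untied transcripts, which held 6.42% to 6.77% of the counts, were left out of library sizes and tests. Reads shared by paralogs or overlapping transcripts are divided by estimation.

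Groups came from the sample titles and the library sets from the rule given for this work. The main test was edgeR 4.0.16 (quasi-likelihood, robust, R 4.3.3) with TMM scaling and filterByExpr, fitted on 18 libraries in 6 groups (common dispersion 0.0207), with Benjamini-Hochberg adjustment over 16607 genes per comparison at 0.05. Fold changes are fitted values, and each SE is the absolute log2 fold change over the root of its F statistic. Exact permutation tests used log2(CPM + 0.5). DESeq2 1.42.0, other scaling, no filter, counts rebuilt from TPM, set-wise fits, a fit without sets, embryo sex (from Y-linked CPM), a replicate block and leaving out each library were alternatives. The scripts were tested on simulated data.

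Named genes were the members, Irx3 and Irx4, the called genes of each pathway list (at most 4 by smallest p) and the 3 genes most like each member. The members and lists were chosen with earlier results of these data known. Estimated counts behind the members were 473.0 to 2178.0 for Tbx2 and 1500.1 to 3246.7 for Tbx5 per library. Floors cover counting error only. Over the 18 pairs of libraries within a group of genotype and set, the smallest chi-square per gene was 6.17, so none of these pairs agreed within sampling noise. Samples with the same number in different groups were not paired: over 15 such pairs in set 2 their deviations had r from -0.29 to 0.12.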

Additional observations from a re-analysis of the deposited data

Results flagged for a closer look

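Tbx1 in DKO 3 stood apart from the other 5 DKO libraries at 0.167 CPM, where the others were listed at 0. With the others tied at 0, any count at all would have been marked by Dixon's criterion, so the mark carries no weight. The value rests on 6.2 estimated counts, and no value of another member was marked.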

How the results depend on the processing

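Among the members, no fold change that passed the threshold changed its sign under any alternative run. Tbx2 in DKO against WT passed in 7 of 8 alternatives other than leaving out a library and in 18 of 18 with a library left out. Tbx2 against dHet and against Irx3KO passed in 9 of 9 of the others. Mycn in DKO against WT reversed to 0.67 without a set term, by construction, since Mycn is lower in set 1. With DESeq2 the count of genes called was 608 for DKO against WT (main 239), 199 against Irx3KO (63), 26 against Irx4KO (4), 183 against dHet (15), 12 for Irx3KO against dHet (1), 32 for Irx4KO against dHet (2), 214 for Irx3KO against Irx4KO (48), 175 for DKO against the mean of the other set 2 genotypes (12) and 11 for the interaction (0). With counts rebuilt from TPM it was 147 for DKO against WT, 29 against Irx3KO, 1 against Irx4KO and 26 for Irx3KO against Irx4KO. With the compared set alone it was 16 for DKO against WT, 179 against Irx3KO, 173 against dHet, 2 for Irx3KO against dHet, 12 for Irx4KO against dHet, 145 for Irx3KO against Irx4KO and 155 for the mean. Without a set term it was 105, 284, 12 and 317 for DKO against WT, Irx3KO, Irx4KO and dHet, 1 for Irx4KO against dHet, 23 for Irx3KO against Irx4KO, 2235 for the mean and 2460 for the interaction. With embryo sex as a term it was 36 for DKO against Irx3KO. Causes were not tested. With a replicate block in set 2 it was 38 for DKO against Irx3KO, 3 against Irx4KO, 34 against dHet, 2 for Irx3KO against dHet, 2 for Irx4KO against dHet, 14 for Irx3KO against Irx4KO and 54 for the mean. No paired analysis was possible in set 1, because DKO and WT share no replicate number there. Leaving out 1 library gave 67 to 576 calls for DKO against WT, 15 to 143 against Irx3KO, 1 to 6 against Irx4KO, 4 to 102 against dHet, 1 to 2 for Irx3KO against dHet, 0 to 6 for Irx4KO against dHet, 12 to 119 for Irx3KO against Irx4KO, 2 to 115 for the mean, 0 to 1 for the interaction and 1693 to 3876 between the DKO libraries of the sets (main 3119). Tbx5 without a set term passed against Irx3KO (adjusted p = 0.03) and against the mean (0.00883).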
